A study of Mus musculus with 4 samples.

Results

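The 9 genes described here encode tissue-specific transcription factors of the basic helix-loop-helix (bHLH) family: the proneural factors Neurog1, Neurog2, Neurog3, Neurod1 and Neurod2, the secretory-lineage factor Atoh1, the crypt stem cell factor Ascl2, and the paired factors Hand1 and Hand2. Members were found by gene name among the 83122 probes of a methylation tiling array study of C57BL/6 mouse intestine. Probes carried the names of 8 of the 9 genes, and Atoh1 was not analysed here. The 8 genes had 49 probes, of which 48 were usable, and these formed 8 regions among 15352 measured regions of the study. The genes were proposed with earlier results of these data known, so their ratios are given as a description with no test.

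Intestinal genomic DNA of 32-month-old C57BL/6 mice was set against that of 3-month-old C57BL/6 mice on 2 Agilent oligonucleotide arrays. No transgene, deletion or treatment is named for either age. By the labels, the first array held chromosomes 1 to 8 and the second chromosomes 9 to 19, X and Y. The 32-month DNA carried the red dye Cy5 and the 3-month DNA the green dye Cy3 on both arrays. Each array held 1 sample of each age, and the dyes were never swapped. Age and dye therefore cannot be told apart, there is no replicate check, and the SDs given below are spreads over the probes of a region. For the sex and number of animals, the section of intestine and the step that selected DNA by its methylation, the sources used here give nothing. Signals are therefore reported as brighter or dimmer and not as methylation levels. Genomic DNA carries no expression, so the tissue label could not be checked against marker genes. Intestine is a mixture of cell types, in which a different share of cells of a type and a different state per cell cannot be told apart.

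A bHLH factor binds DNA as a dimer, commonly with a widely expressed E protein such as Tcf3, Tcf4 or Tcf12, at the short sequence called the E-box. In the intestinal epithelium Atoh1 commits progenitors to the secretory lineage under repression by the Notch target Hes1, Neurog3 and then Neurod1 direct enteroendocrine cells, and Ascl2 maintains the Lgr5-positive stem cells of the crypt. Hand2 acts in the neural crest derivatives that form the enteric nervous system, Hand1 and Hand2 in heart and mesoderm, Neurog1 and Neurog2 in sensory ganglia and the developing brain, and Neurod2 in cortical neurons. Developmental regulators of this kind often have promoters rich in CG dinucleotides, the sites at which mammalian DNA is methylated.

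The promoters of Hand2, Neurod2 and Neurog2 are shown first because each holds 1 CCCGGG that lay between a pair of neighbouring probes with unlike ratios, a choice made after the values were seen. CCCGGG is the recognition sequence of SmaI and XmaI, enzymes used in methylated CpG island amplification, and the sources used here do not give the method. It was searched only from 250 bases before to 50 after each start, so sites elsewhere in the regions are unknown. Across it, toward the gene, the ratio rose in Hand2 and Neurod2 and fell in Neurog2. Unlike neighbouring probes also occurred away from it. In Neurod2 the log2 ratio fell from 1.82 in the probe from -1026 to -982, counted from the start, to -0.92 in the next, from -810 to -760. That step was wider than the one across CCCGGG, from 0.019 to 1.86, and lay outside the stretch searched. A role of the sequence in the ratios was not tested. The sequences are the 250 bases before the annotated start in RefSeq, build GRCm38.p6, read along the gene from 5′ to 3′, with CCCGGG in capitals. They lie at chr8:57320733-57320982 on the plus strand for Hand2, chr11:98329646-98329895 on the minus strand for Neurod2 and chr3:127632886-127633135 on the plus strand for Neurog2.
Hand2: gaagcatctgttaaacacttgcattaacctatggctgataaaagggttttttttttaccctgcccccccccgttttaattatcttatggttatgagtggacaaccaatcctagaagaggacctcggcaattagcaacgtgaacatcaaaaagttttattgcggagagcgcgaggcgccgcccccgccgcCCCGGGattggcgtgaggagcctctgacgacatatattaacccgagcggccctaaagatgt
Neurod2: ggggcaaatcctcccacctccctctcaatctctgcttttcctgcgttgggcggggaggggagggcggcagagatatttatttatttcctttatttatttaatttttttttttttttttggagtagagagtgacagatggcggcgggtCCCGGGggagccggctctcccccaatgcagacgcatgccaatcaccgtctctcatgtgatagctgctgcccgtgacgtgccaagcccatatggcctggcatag
Neurog2: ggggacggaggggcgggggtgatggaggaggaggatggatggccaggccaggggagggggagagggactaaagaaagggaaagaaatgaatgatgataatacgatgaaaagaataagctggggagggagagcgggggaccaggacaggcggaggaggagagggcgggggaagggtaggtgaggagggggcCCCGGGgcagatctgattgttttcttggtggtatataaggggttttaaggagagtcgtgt

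For Neurog1 and Hand1 the array probes themselves are shown, because the probes of Neurog1 fell into those with high and those with low ratios and the probes of Hand1 were all brighter at 32 months. All 5 probes of Neurog1 and 5 of the 6 of Hand1 are given. Probe positions are those of the array files, whose genome build is not given in the sources, and they are not interchangeable with the RefSeq positions above. Letters are as deposited, 5′ to 3′ of the probe, with each CG dinucleotide in capitals. The first 2 Neurog1 probes are annotated inside the gene by the array and the other 3 in its promoter.
Neurog1, chr13:56261255-56261299: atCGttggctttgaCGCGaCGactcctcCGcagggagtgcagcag
Neurog1, chr13:56261499-56261543: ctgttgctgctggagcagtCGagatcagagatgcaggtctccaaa
Neurog1, chr13:56262291-56262349: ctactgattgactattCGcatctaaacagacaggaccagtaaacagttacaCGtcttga
Neurog1, chr13:56262469-56262513: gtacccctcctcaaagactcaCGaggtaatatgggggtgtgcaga
Neurog1, chr13:56262698-56262752: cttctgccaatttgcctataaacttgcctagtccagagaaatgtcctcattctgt
Hand1, chr11:57647940-57647984: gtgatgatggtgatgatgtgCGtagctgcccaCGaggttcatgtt
Hand1, chr11:57648461-57648516: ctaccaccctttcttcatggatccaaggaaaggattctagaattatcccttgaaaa
Hand1, chr11:57648627-57648684: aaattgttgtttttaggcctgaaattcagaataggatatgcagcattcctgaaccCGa
Hand1, chr11:57648966-57649010: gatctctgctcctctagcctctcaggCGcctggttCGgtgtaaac
Hand1, chr11:57649168-57649224: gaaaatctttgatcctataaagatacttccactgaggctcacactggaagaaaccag

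Promoter windows of 300 bases, from 250 before to 50 after the annotated start, were matched for 7 of the 8 measured genes, and Hand1 was not matched. The windows of the 7 genes held 10 to 32 CG dinucleotides, with a median of 7 over all 32851 windows. Neurog1 had the most, 32, and Neurog2 the fewest, 10. CCCGGG was found in 3 of the 7 windows and in 13.5% of all windows. The E-box, searched as CANNTG, which reads the same on both strands, was found in 6 of the 7 windows and in 72.3% of all windows. Neurod2 held 3 E-boxes, Ascl2 and Hand2 held 2 each, Neurog1, Neurog3 and Neurod1 held 1 each, and none was found in the Neurog2 window. These matches describe the windows and identify no bound site.

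For every probe the ratio of 32-month over 3-month processed signal was taken on the log2 scale, minus the array median, and the value of a region is the median over its usable probes. Folds given below are centred in the same way, which adds 0.14 to each log2 ratio on the second array, so they exceed the plain quotient of the signals there. A region was called higher at 32 months when its median was at least 1, which is a 2-fold difference, and every usable probe lay above 0, and lower in the mirrored case. Of the 8 regions, Hand1, Hand2 and Neurog1 were called higher and none was called lower. Over all 15352 regions 2.01% were called higher and 0.632% lower. The members were chosen on this contrast, so nothing is read from their count. The other 5 regions had medians between -0.12 for Neurog3 and 0.40 for Neurod2.

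**Figure D1:**
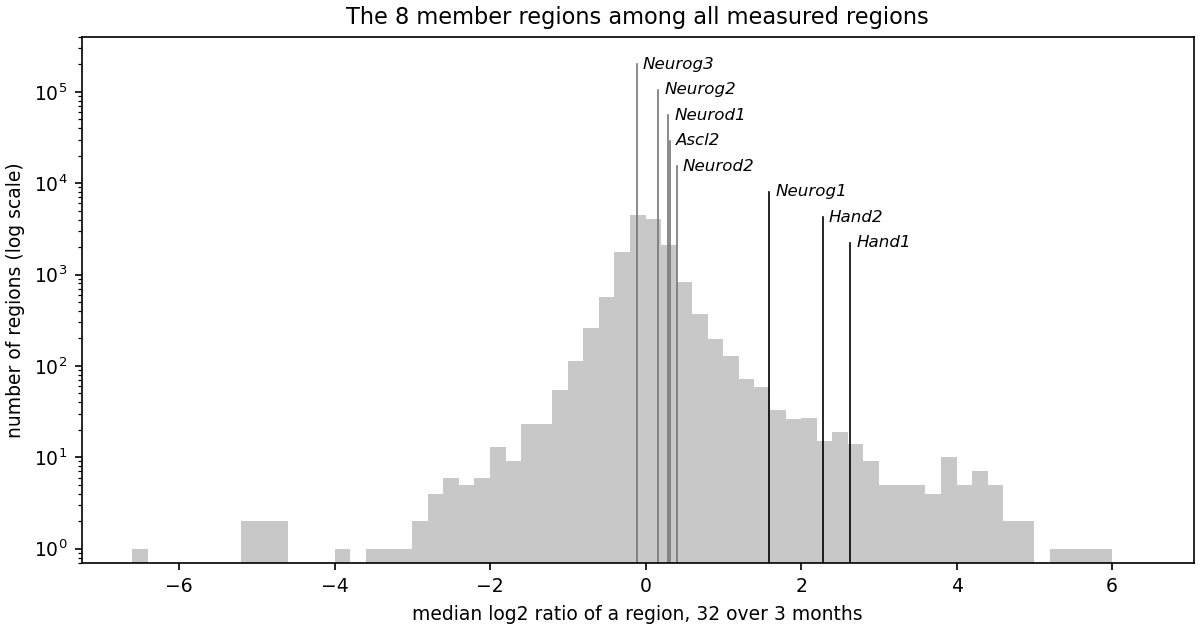
Distribution of the median log2 ratio (32 over 3 months, x axis) of all 15352 measured regions, as a histogram with the number of regions on a log y axis; vertical lines mark the 8 named regions, black where called higher at 32 months, and their heights only separate the labels. Hand1 at 2.64, Hand2 at 2.28 and Neurog1 at 1.59 lie in the right tail, and the other 5 lie between -0.12 and 0.40.

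Hand1 and Hand2 are paired factors of heart, mesoderm and neural crest derivatives, and Hand2 is required for enteric neurons. Both regions were brighter at 32 months, but their probes did so in different ways. In Hand1 all 6 probes were brighter at 32 months, with centred ratios of 4.22-fold or more. In Hand2 the brightening was at and past the start of the gene, while the 4 probes upstream of it were below 2-fold. The medians ranked 75 for Hand1 and 104 for Hand2 from the highest among the 15352 regions.

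The Hand2 region lay at chr8:60212244-60213644 of the array positions and was annotated as promoter throughout. Distances are from the RefSeq start site, placed on the array positions by the 2 probes whose letters occur in the promoter window shown above. The probe from -881 to -822 had a processed signal of 88.2 at 32 months and 70.6 at 3 months. The probe from -726 to -678 had 576 at 32 months and 517 at 3 months. The next, from -325 to -266, had 426 at 32 months and 374 at 3 months. These 3 probes were all dim to moderate and nearly equal at the 2 ages, with log2 ratios of 0.15 to 0.32. The probe from -149 to -92 had 182 at 32 months and 94.7 at 3 months, a log2 ratio of 0.94. Beyond it the 32-month signal was among the brightest on the array.

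The Hand2 probe spanning the start site, from -30 to 21, had a signal of 160000 at 32 months and 13000 at 3 months, a 12.3-fold difference. The probe from 135 to 179 had 213000 at 32 months and 4580 at 3 months, 46.4-fold. The probe from 278 to 337 had 106000 at 32 months and 1630 at 3 months, 64.8-fold. This last probe holds 0 CG dinucleotides in its own letters, so the high ratios were not limited to probes that contain a CG. The probe from 475 to 519 had 260000 at 32 months and 11500 at 3 months, 22.5-fold. At 32 months all 4 lay between the percentiles 98.8 and 99.5 of signal on the array, and their 3-month signals were also well above background. The CCCGGG in the Hand2 promoter, from -61 to -56, lay between the last low probe and the first high one.

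The 4 Hand2 probes at or past the start averaged a log2 ratio of 4.92 ± 1.07 and the 4 upstream probes 0.40 ± 0.37 (SD over probes, n = 4 each). The groups did not overlap. The split was made after the values were seen. The region median of 2.28 ± 2.53 (SD over 8 probes) falls in the gap between both sets and is the value of no probe. Leaving out 1 probe brought it down to 0.94 in the lowest case, which ended the call, and the median of the 4 probes at or past the start was 5.01.

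**Figure D2:**
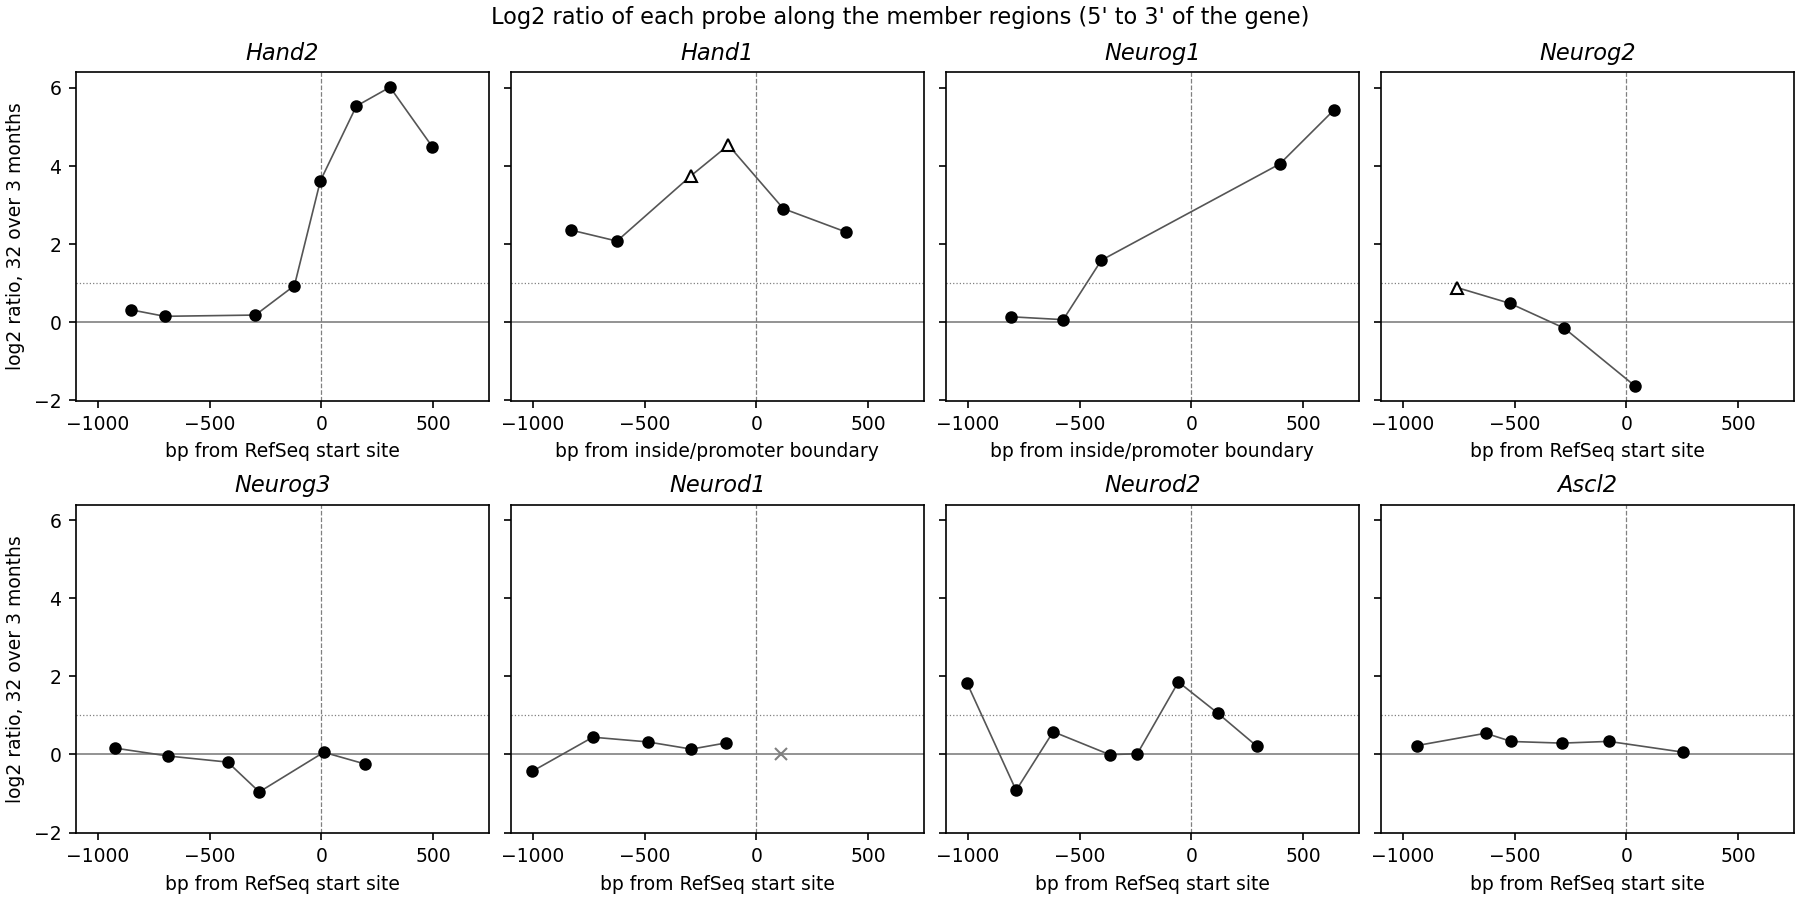
Log2 ratio of processed signal (32 over 3 months, y axis) of each probe against its distance in bp (x axis), 5′ to 3′ of the gene, from the RefSeq start site or, for Hand1 and Neurog1, from the boundary between the array's inside and promoter probes. Filled circles are probes well above background at both ages, open triangles probes not well above background at 3 months, and the cross the 1 probe usable at neither age; the dotted line marks 2-fold. Hand2 steps up at its start site, Hand1 is high throughout, Neurog1 is high inside the gene, and Neurog2 runs down to -1.62.

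The Hand1 region lay at chr11:57647940-57649224, and the gene lies on the minus strand, so that higher positions are upstream. Inside the gene, the probe at chr11:57647940-57647984 had a signal of 16800 at 32 months and 3730 at 3 months, 4.96-fold. The other inside probe, at chr11:57648219-57648266, had 3470 at 32 months and 509 at 3 months, 7.51-fold. In the promoter, the probe at chr11:57648966-57649010 had 6400 at 32 months and 1670 at 3 months, 4.22-fold. The last promoter probe, at chr11:57649168-57649224, had 3110 at 32 months and 666 at 3 months, 5.14-fold. These 4 probes thus differed between the ages to a similar extent inside the gene and upstream of it.

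The 2 promoter probes nearest the Hand1 gene were not well above background at 3 months, so their ratios are uncertain. Their 3-month signals exceeded 51.3, the lowest 3-month signal among probes well above background on that array. The folds are therefore plain ratios of the signals and not bounds. The probe at chr11:57648461-57648516 had 1430 at 32 months and 68 at 3 months, a ratio of 21.0-fold before centring and 23.2-fold after it. The probe at chr11:57648627-57648684 had 865 at 32 months and 70.6 at 3 months, a ratio of 12.3-fold before centring and 13.5-fold after it. Neither is rich in CG, with 0 and 1 in their letters. The 4 probes above background at both ages averaged a log2 ratio of 2.41 ± 0.35 (SD over probes, n = 4). With all 6 probes the region median was 2.64 ± 0.97, or 6.21-fold.

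**Figure D3:**
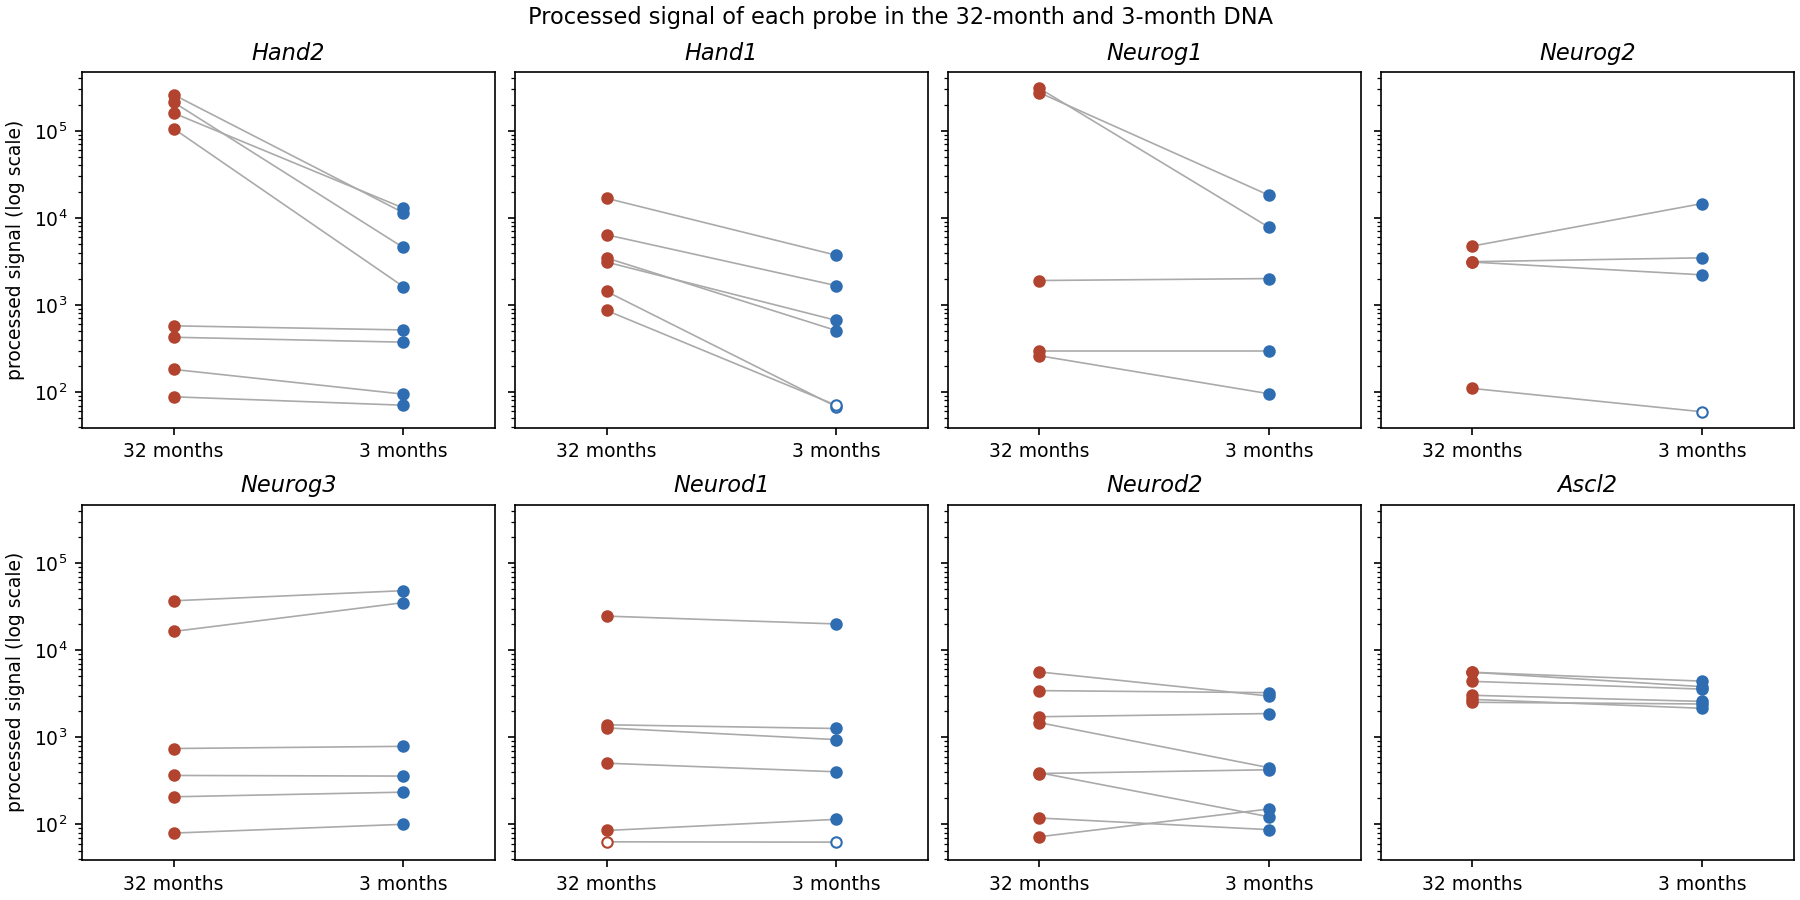
Processed signal of every probe of the 8 regions (log y axis) at 32 months (left, red) and 3 months (right, blue), joined by a line per probe; open circles mark signals not well above background. The 4 bright Hand2 probes stand between 106000 and 260000 at 32 months, and the 2 bright Neurog1 probes at 274000 and 307000, while Ascl2 probes stay between 2520 and 5570 at 32 months and between 2150 and 4410 at 3 months.

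The neurogenins start neuronal and endocrine differentiation, and the 3 differed from each other. Neurog1 was brighter at 32 months inside the gene, Neurog2 held 1 probe that was dimmer at 32 months just past its start, and Neurog3 was nearly equal at both ages or dimmer at 32 months.

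Neurog1, known from cranial sensory ganglia, lay at chr13:56261255-56262752. The inside probe with 5 CG dinucleotides had a signal of 307000 at 32 months and 7790 at 3 months, 43.4-fold. The other inside probe, with 1 CG, had 274000 at 32 months and 18200 at 3 months, 16.6-fold. At 32 months they lay at the percentiles 99.5 and 99.4 of signal on their array. In the promoter, the probe nearest the gene had 261 at 32 months and 95.6 at 3 months, a log2 ratio of 1.59. The middle promoter probe had 1910 at 32 months and 2010 at 3 months, a log2 ratio of 0.066. The farthest promoter probe had 293 at both ages and a centred log2 ratio of 0.14. The median of the 5 probes, 1.59 ± 2.40, is the value of the single promoter probe nearest the gene. Inside probes had a median of 4.75 and promoter probes of 0.14, a split made after the values were seen. The promoter probes held 0 to 2 CG dinucleotides. No Neurog1 probe was matched to the promoter window with 32 CG dinucleotides, so these probes do not give the signal of that window. Leaving out 1 probe brought the region median down to 0.86 in the lowest case, which ended the call.

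Neurog2, a factor of cortical and spinal neurons, lay at chr3:127624372-127625217 and had a region median of 0.16 ± 1.10 over 4 probes. The inside probe, from 15 to 59 past the start, had 4750 at 32 months and 14600 at 3 months, a log2 ratio of -1.62. After centring it was the 1 probe of the 48 that was at least 2-fold lower at 32 months, as were 3.35% of all 62411 usable probes. Before centring, the Neurog3 probe from -300 to -256 and the Neurod2 probe from -810 to -760 also passed, at 0.47-fold and 0.48-fold. The probe from -304 to -252 had 3140 at 32 months and 3480 at 3 months, a log2 ratio of -0.15. Between these 2 probes lay the CCCGGG of the Neurog2 promoter, from -60 to -55. Farther upstream, the probe from -543 to -499 had 3110 at 32 months and 2220 at 3 months, a log2 ratio of 0.48. The probe from -786 to -727 had 110 at 32 months and 59.4 at 3 months, the latter not well above background. Its ratio of 1.85-fold is therefore uncertain.

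Neurog3, which directs progenitors to the enteroendocrine fate, lay at chr10:61527497-61528668 with a median of -0.12 ± 0.40 over 6 probes. The probe from -300 to -256 was bright at both ages, with 16400 at 32 months and 35100 at 3 months, a log2 ratio of -0.96. The inside probe from 173 to 221 had 36900 at 32 months and 48200 at 3 months, a log2 ratio of -0.25. Both of these probes were dimmer at 32 months. The other 4 probes had signals of 79.3 to 742 at 32 months and 100 to 786 at 3 months, with log2 ratios of -0.20 to 0.16.

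Neurod1, which acts after Neurog3 in enteroendocrine cells, lay at chr2:79257334-79258506. Its 5 usable probes had a median of 0.29 ± 0.34. The probe from -159 to -115, had 24600 at 32 months and 20000 at 3 months, a log2 ratio of 0.29. The other 4 usable probes ranged from 84.9 to 1390 at 32 months and from 114 to 1260 at 3 months, with log2 ratios of -0.43 to 0.44. The inside probe, at 62.9 at 32 months and 62.4 at 3 months, was not well above background at either age. No Neurod1 probe reached 2-fold in either direction.

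Neurod2, a factor of cortical neurons, lay at chr11:98145420-98146761 and had probes on both sides of 0, with a median of 0.40 ± 0.96 over 8 probes. The probe from -80 to -36 had 1470 at 32 months and 447 at 3 months, a log2 ratio of 1.86. The inside probe from 96 to 140 had 5620 at 32 months and 2970 at 3 months, a log2 ratio of 1.06. The far upstream probe from -1026 to -982 had 391 at 32 months and 122 at 3 months, a log2 ratio of 1.82. These 3 were the Neurod2 probes at least 2-fold brighter at 32 months. The inside probe passed only after centring, with 1.89-fold before it and 2.08-fold after it. In contrast, the probe from -264 to -220 had 1720 at 32 months and 1870 at 3 months, a log2 ratio of 0.019. The CCCGGG of the Neurod2 promoter, from -103 to -98, lay between that probe and the brighter one from -80 to -36. The remaining 4 probes had log2 ratios of -0.92 to 0.58, and the lowest rested on signals of 72 at 32 months and 150 at 3 months.

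Ascl2, the factor of crypt stem cells, lay at chr7:142778378-142779618 and was the most even region, with a median of 0.31 ± 0.16 over 6 probes. All 6 probes were brighter at 32 months, with signals of 2520 to 5570, against 2150 to 4410 at 3 months. The log2 ratios ran from 0.060 in the inside probe to 0.54 in the probe from -654 to -607. None reached 2-fold. Its SD over probes lay below the median of 0.36 over all regions, while the SDs of Hand2 and Neurog1 exceeded the 99th percentile of 2.08.

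Over all members 39 of the 48 usable probes had a ratio above 0 and 9 below. A called region has every usable probe above 0 by rule, which gives 5 probes of Neurog1, 6 of Hand1 and 8 of Hand2. No share over all probes stands beside this count, so nothing is read from it. At least 2-fold higher signal at 32 months was found for 16 of the 48 probes, or 33.3%, and for 6.35% of all usable probes of the study. Those 16 comprised 6 of Hand1, 4 of Hand2, 3 of Neurog1 and 3 of Neurod2. The Neurod2 inside probe among them passed 2-fold only after centring. Pairs of neighbouring probes at least 8-fold higher occurred in Hand1, Hand2 and Neurog1, and in 0.664% of all regions. Both probes of the Hand1 pair were not well above background at 3 months, so that pair is less certain. Such pairs at least 8-fold lower occurred in none of the members and in 0.202% of all regions. Regions of high signal were called more often: in the brightest 10% of all regions, which holds Hand2, Neurog2 and Ascl2, 10.2% were called higher, and in the next 10%, which holds Hand1 and Neurog1, 2.87%. The part of brightness in the members' ratios was not tested. Replicate control spots show the error between spots of 1 array and not that between animals or dyes. Among 88 unflagged replicate control spots on the first array the SD of the log2 ratio was 0.26, and among 93 on the second it was 0.19. Their median log2 ratios were -0.17 and -0.16. Median signals were 174 at 32 months and 198 at 3 months on the first array, and 464 and 562 on the second. These lie far below the brightest Hand2 and Neurog1 probes, so the SDs do not give the error of such probes.

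**Figure D4:**
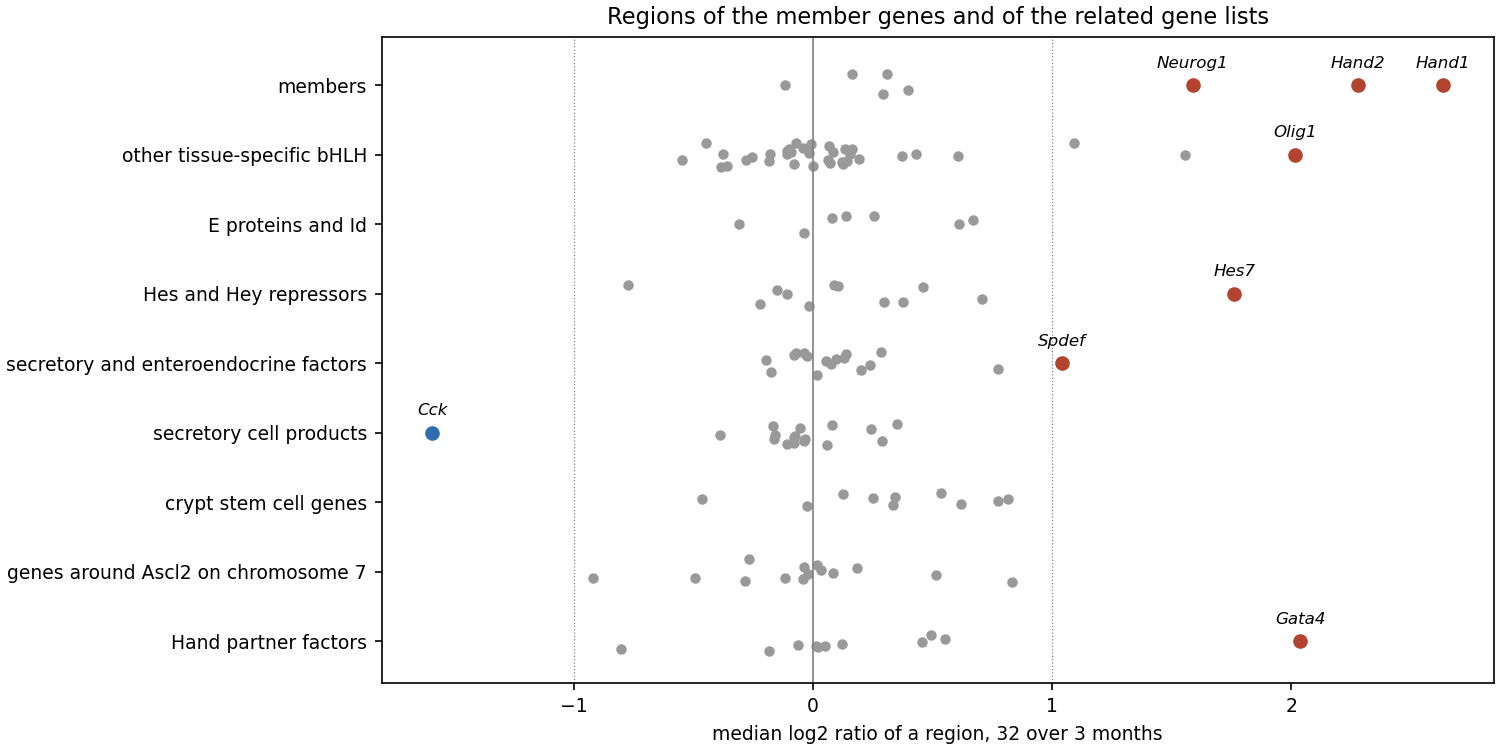
Median log2 ratio (32 over 3 months, x axis) of each measured region of the 8 genes (labelled members) and of 8 lists of related genes (rows); red points are regions called higher at 32 months, blue lower, grey neither, the vertical scatter only separates points, and dotted lines mark 2-fold. Olig1 at 2.02, Hes7 at 1.76, Spdef at 1.04 and Gata4 at 2.04 are called higher and Cck at -1.59 lower.

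Related genes were taken from 8 lists, read by counts and medians beside all 14477 genes measured, of which 2.29% had a region called higher and 0.76% lower and whose median was 0.014. The median of the 8 members was 0.36. The lists together held 112 measured genes, each counted once, and their median was 0.029. Of these, 4 were called higher and 1 lower.

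Of 34 other tissue-specific bHLH genes 1 was called higher and 0 lower, with a list median of -0.0029. It was Olig1, a factor of oligodendrocytes, at 2.02 ± 1.71 over 3 probes. Twist1 and Twist2, picked out of this list after their high values were seen, had medians of 1.56 and 1.09. They were not called, because each had a probe below 0. With a list median of -0.0029, these genes are not typical of the list. Their highest probes stood at 5.16 for Twist1 and 3.32 for Twist2, with SDs over probes of 2.17 and 1.55. Genes of the list with low medians also held high single probes.

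Among the dimer partners, 0 of 6 measured E protein and Id genes were called, with a list median of 0.17. Tcf4 had 2 regions, at 0.14 and 0.61, and Tcf12 stood at -0.31. Tcf3 was not measured under that name, because the array's Tcf3 lies on another chromosome than the RefSeq gene. Of the Hes and Hey repressors, which oppose bHLH activators downstream of Notch, 1 of 10 was called higher and 0 lower, with a list median of 0.037. It was Hes7, a clock gene of somite formation, at 1.76 ± 1.12 over 5 probes. Hes1, which represses Atoh1 in crypts, stood at 0.46 and was not called.

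Of 16 secretory and enteroendocrine factors 1 was called higher and 0 lower, with a list median of 0.066. It was Spdef, which acts in goblet and Paneth cells below Atoh1, at 1.04 ± 0.51 over 4 probes, close to the threshold. Gfi1, a target of Atoh1, stood at 0.13, Insm1 at 0.24 and Rfx6, both enteroendocrine factors, at 0.057. Of 16 secretory cell products 0 were called higher and 1 lower, with a list median of -0.063. It was Cck, the hormone cholecystokinin, whose median signal was 281.5 at 32 months and 849 at 3 months, with a log2 ratio of -1.59 ± 0.58 over 6 probes.

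None of the 9 measured crypt stem cell genes was called, and their median was 0.35. Lgr5, the stem cell receptor, stood at 0.82 ± 0.78 with its highest probe at 2.43. None of the 13 measured genes around Ascl2 on chromosome 7, an imprinted neighbourhood, was called, with a median of -0.018. Cdkn1c, an imprinted cell cycle inhibitor, was bright at both ages, with a median signal of 304000 at 32 months and 253000 at 3 months and a log2 ratio of 0.52 ± 0.21. Kcnq1ot1 was not measured under that name.

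A list of 10 genes linked to Hand1 and Hand2 in heart or neurons held transcription factors, an enzyme and a receptor. Of these genes 1 was called higher and 0 lower, with a list median of 0.088. It was Gata4, a partner of Hand2 in the heart and a factor of small intestinal epithelium, at 2.04 ± 1.33 over 6 probes, with a median signal of 3765 at 32 months and 1050 at 3 months.

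The chromosomal neighbours of the members were not called in either direction within 100 kb. Ascl2 and Neurod2 had 5 measured neighbouring regions each and Neurog1, Neurog2 and Neurog3 had 2 each, while none was measured for Hand1, Hand2 and Neurod1. The 2 neighbours of Neurog1 stood at 0.19 ± 2.35 and 0.64 ± 0.81 (SD over probes), against 1.59 ± 2.40 in Neurog1 itself. The SD of the first exceeded the 99th percentile of 2.08 over all regions, so its low median does not make it an even region. The neighbours of Ascl2 ran from -0.68 to 0.83, and those of Neurod2 from -0.49 to 0.61.

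The calls of the 3 genes depended unevenly on how the signals were processed. Over 10 other settings Hand1 was called higher in 10, with values of 2.31 to 2.99, and Hand2 in 9, with values of 2.09 to 2.66. The Neurog1 region with its promoter probes was called in 5, with values of 0.14 to 2.26. Keeping dim probes, keeping flagged spots and joining over 2000 bp left all 3 regions at their main values. Requiring signal above background at both ages left Hand2 and Neurog1 unchanged, and joining over 500 bp left Hand1 and Hand2 unchanged. Calls that rest on an unchanged value were fixed in advance. With the Neurog1 region kept whole, only the mean over probes, at 2.26, changed its value and kept the call. With regions joined over gaps of at most 500 bp instead of 1000 bp, the inside and promoter probes of Neurog1 became separate regions. The inside probes then stood at 4.75 and were called higher, and the promoter probes stood at 0.14 and were not called. Leaving out 1 probe could end the call of Hand2 and of Neurog1 but not that of Hand1.

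**Figure D5:**
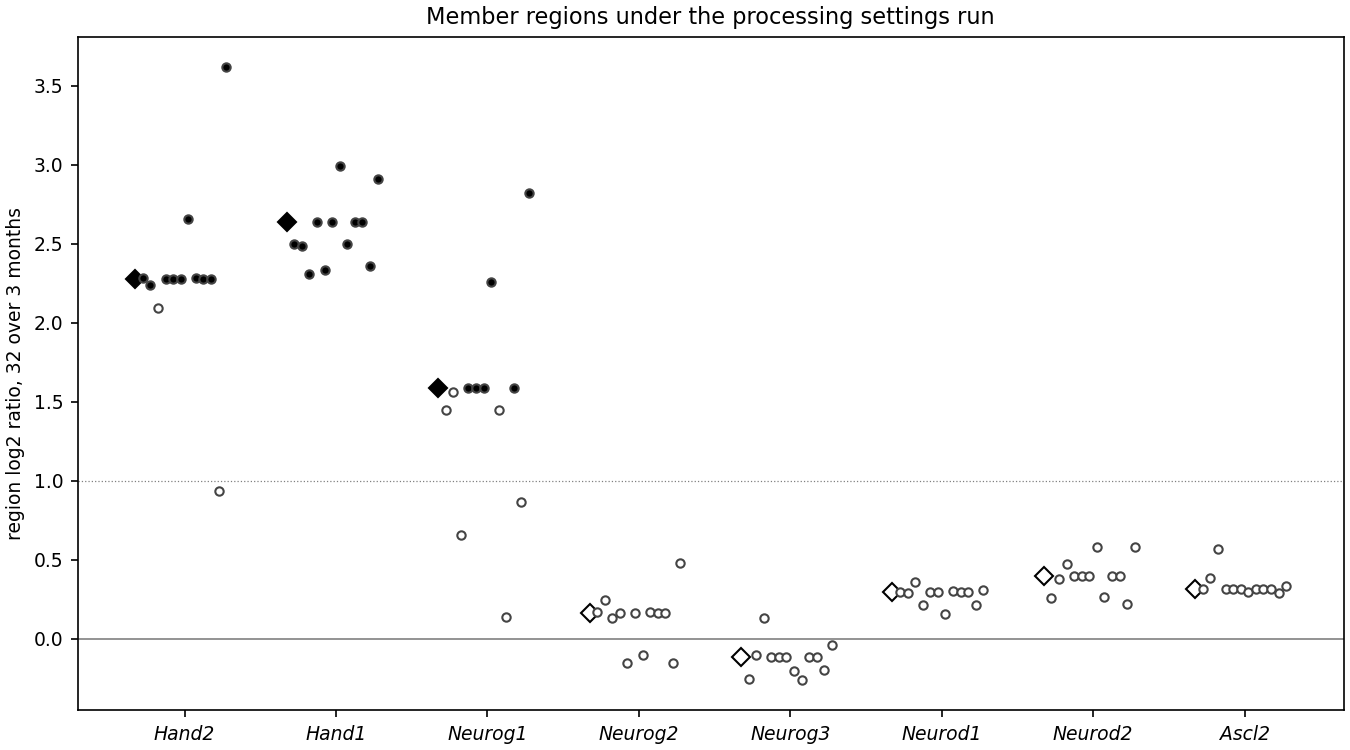
Log2 ratio (32 over 3 months, y axis) of each of the 8 regions under the main setting (diamond, leftmost) and under each other setting in turn, including the lowest and highest value with 1 probe left out (circles); filled symbols are called higher and the dotted line marks 2-fold. Hand1 stays between 2.31 and 2.99, while the lowest Neurog1 value, 0.14, is that of its promoter probes alone, with regions joined over 500 bp.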

How the data were processed

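The submitters' processing notes name Agilent Feature Extraction 9.1.3.1. Ratios were computed from the deposited processed signals, intensity values that had been background-subtracted, detrended and linearly dye-normalized per the file headers. The deposited mean and background intensity values and the scanner's deposited log10 ratio (red over green) entered only the alternatives. The value table of the authors equalled the processed signals in 100% of spots, within 0.5%. No source used here gives the selection step, genome build, sex or number of animals.

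Controls, 39 flagged probes and 271 probes without a position were dropped. Usable probes were well above background in at least 1 channel, and 70.1% to 72.5% of probes were so in each channel. Log2 ratios were centred on the array medians, 0.0044 and -0.14. Same-named probes at most 1000 bp apart formed a region, which needed 2 usable probes. The number of arrays limits the precision. Region calling was tested on shuffled log ratios of these data with shifts planted in whole regions. That test does not cover steps within a region, as in Hand2 and Neurog1. Python 3.11.15 and limma 3.58.1 in R 4.3.3 (loess, normexp) were used. No p-value was computed, with 1 sample per age and array.

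Members and lists were chosen with earlier results of these data known. Named genes are the members, up to 5 called regions per list and direction, and 14 genes fixed by name, of which 2 are not reported here. Twist1 and Twist2 were added after their values were seen. Of 16317 gene and region pairs, 22 whose symbol lies on another chromosome in RefSeq were left out. Alternatives changed centring, background correction, filters, region gap, summary and threshold.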

Additional observations from a re-analysis of the deposited data

How the results depend on the processing

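No called member region turned to the other side of 0. Of the regions not called, Neurog2 ran from -0.15 to 0.24 and Neurog3 from -0.26 to 0.13 over 10 other settings. Neurog1 was no longer called uncentred (1.45), after loess on brightness (1.56), with normexp background correction (0.66), with the scanner's log ratio (1.45) and, at the lowest, with 1 probe left out (0.86). With regions joined at 500 bp its promoter probes formed a region of their own that was not called (0.14), while its inside probes were called (4.75). Hand2 was not called with normexp (2.09) or, at the lowest, with 1 probe left out (0.94). Its probes at or past the start stood at 5.01 and those upstream at 0.25. These splits by position, apart from the 500 bp joining, were chosen after seeing the data. With normexp Ascl2 was 0.57 and 1 member, Hand1, was called. Over all regions 309 were called higher and 97 lower. These counts were 421 and 20 with normexp, 246 and 56 with dim probes kept, 241 and 133 uncentred, 242 and 134 with the scanner's log ratio, 678 and 344 at a 1.5-fold threshold and 101 and 22 at 4-fold. The cause of these shifts was not tested. The ratios of the 3 usable probes not well above background at 3 months are uncertain. Without replicates or a dye swap no value here has an error between animals.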
